A study of Homo sapiens with 18 samples.

Results

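The 38 genes described here encode proteins of the Fanconi anemia pathway and of homologous recombination, and were taken by symbol from a fixed list. All 38 were among the 62754 genes of the count matrix, and all 38 passed the filter on low counts, which 15167 genes passed. Proteins of the Fanconi core complex place ubiquitin on FANCD2 and FANCI where the strands of DNA are crosslinked, and nucleases and translesion enzymes then act on the lesion. In homologous recombination a broken end is resected, BRCA2, PALB2 and other mediators prepare the exposed strand for strand exchange, and the intact sister chromatid serves as the template. These pathways act mainly in S and G2 phase, and many of their genes are transcribed in cycling cells under the control of E2F factors.

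The study asked whether ELMO1, a scaffold protein of RAC activation, takes part in the inflammatory response of endothelial cells. EA.hy926 is a human umbilical vein endothelial line made by fusion with a lung epithelial line. In Mock only the transfection reagent was given. A non-targeting siRNA was used for siNT and a pool of siRNAs against ELMO1 for siELMO1, at 10 nM. Samples were collected 48 h after transfection, following serum starvation overnight (0 h), or after a further 24 h with 1 μg/ml poly(I:C), a synthetic RNA duplex that stimulates TLR3, which made 6 conditions with 3 biological replicates each. No 24 h condition without poly(I:C) was analysed here, so time in culture and poly(I:C) cannot be told apart, and the pool of siRNAs was not resolved into its members. Levels are given as CPM, the estimated counts of a gene per 1000000 counts of the library after TMM scaling, and a gene was called at a Benjamini-Hochberg adjusted p under 0.05 in edgeR's quasi-likelihood test over all 15167 genes. With 3 libraries against 3, an exact permutation test of a single gene cannot go below a p of 0.1, so single genes were tested only within this model.

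Libraries held 40.4 to 73.9 M estimated counts. ELMO1 was at 3.02 ± 0.029, 2.95 ± 0.34 and 0.340 ± 0.069 CPM (SD, n = 3) in the Mock, siNT and siELMO1 groups before poly(I:C), and it was lower in siELMO1 than in either control at both times. Of 12 endothelial markers 10 passed the filter on low counts, with EMCN and CLDN5 below it, and of 9 epithelial markers 4 passed it. The endothelial list moved mostly upward in siELMO1 at 0 h. Against Mock 7 of its 10 markers were higher and 0 lower, where 27.8% and 22.3% of all genes were. Against siNT 8 were higher and 1 lower, where 31.3% and 31.2% of all genes were. The summed level of the list was 1308 to 1423 in Mock, 1482 to 1564 in siNT and 2009 to 2111 CPM in siELMO1. Of the 4 epithelial markers 3 were higher than Mock and 2 higher than siNT, with a summed list level of 1519 to 1541, 1882 to 1914 and 2103 to 2227 CPM. CDH1, SFTPC and NKX2-1 were at or under 3 counts. The part of these lists in the results on repair genes was not tested. The siELMO1 libraries 2 and 3 at 0 h stood apart, with 4.02% and 3.95% of counts from mitochondrially encoded genes, against 1.86% in library 1 and 1.31% to 2.42% in the other 15. With library 1 as the only siELMO1 library at 0 h, 31 members were called lower than both controls and 23 by over 2-fold. FANCE lost its calls there and NBN gained one. That fit has no spread within siELMO1 at 0 h and assumes that the lone library varies like the other groups.

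Before poly(I:C), most of the repair genes were lower in siELMO1 than in both controls. Against Mock 33 members were lower and 1 was higher, where 22.3% and 27.8% of all genes tested were lower and higher. Against siNT 32 members were lower and 4 were higher, where the shares of all genes were 31.2% and 31.3%. The median log2 fold change of the members was -1.40 against Mock and -1.27 against siNT, beside medians of 0.04 and 0.00 over all genes. The 31 members lower than both controls compare with 16.7% of all genes, and the 24 that fell by over 2-fold against both with 3.23%. In these 31 members each siELMO1 library also lay below all 6 control libraries, as it did in 18.2% of all genes. In bulk RNA, fewer cells that express a gene and less of its RNA per cell cannot be told apart.

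**Figure D1:**
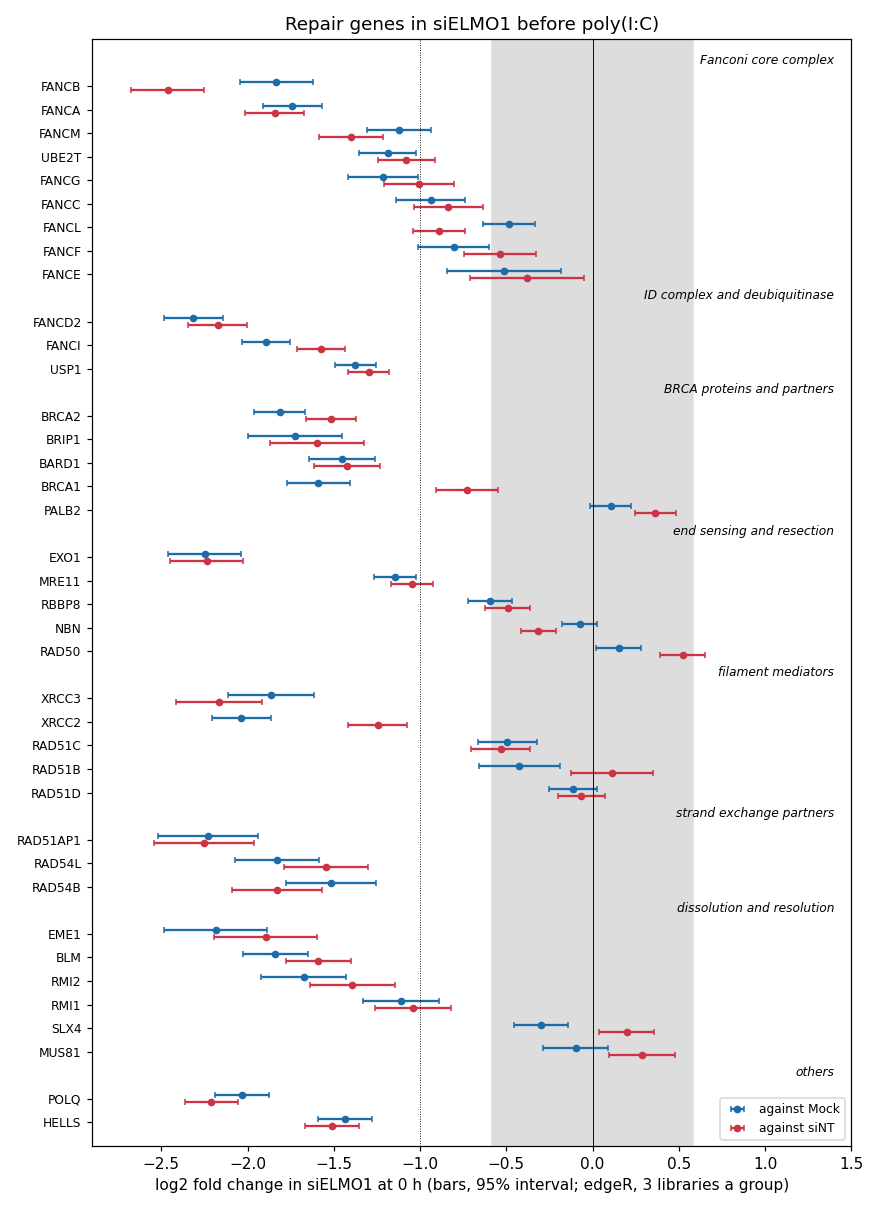
log2 fold change of the 38 genes in siELMO1 at 0 h against Mock (blue) and siNT (red), with 95% intervals, by role; the grey band marks a 1.5-fold change in either direction and the dotted line a 2-fold fall. Most points lie left of the band, the lowest at -2.46, while RAD51D, NBN, PALB2, SLX4 and MUS81 lie within it.

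Markers of cycling cells moved with these genes. The 5 cycling markers MKI67, TOP2A, CCNB1, CDK1 and PCNA were each called lower against both controls, and their summed level was 1568 to 1657 in Mock, 1448 to 1504 in siNT and 423 to 434 CPM in siELMO1 at 0 h. The summed level of the 38 members was 1671 to 1741, 1542 to 1570 and 851 to 932 CPM in the same libraries. The part of cycling in the fall of the repair genes was not tested.

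Promoter sequences are shown for 5 of the members that fell by over 2-fold and for 2 that did not fall, since genes driven by E2F factors carry short sites near their start. The stretches run from 100 bases before to 50 bases after the RefSeq start (GRCh38.p14), with the E2F-type words TTTGGCGC, TTTCCCGC and GGCGGGAA, searched on both strands, in capitals. They were chosen with the motif matches in view and stand for no share.
FANCD2, chr3:10026337-10026486, plus strand: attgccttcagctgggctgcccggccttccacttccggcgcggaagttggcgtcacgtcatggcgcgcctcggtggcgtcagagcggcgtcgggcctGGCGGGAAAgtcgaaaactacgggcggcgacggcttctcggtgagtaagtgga
RAD51AP1, chr12:4538790-4538939, plus strand: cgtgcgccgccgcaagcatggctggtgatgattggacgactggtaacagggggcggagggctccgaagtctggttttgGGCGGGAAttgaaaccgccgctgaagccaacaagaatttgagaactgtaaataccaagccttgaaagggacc
BLM, chr15:90717246-90717395, plus strand: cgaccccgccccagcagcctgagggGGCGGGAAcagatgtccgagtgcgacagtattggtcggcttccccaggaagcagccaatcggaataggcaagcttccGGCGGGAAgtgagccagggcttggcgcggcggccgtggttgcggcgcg
HELLS, chr10:94545688-94545837, plus strand: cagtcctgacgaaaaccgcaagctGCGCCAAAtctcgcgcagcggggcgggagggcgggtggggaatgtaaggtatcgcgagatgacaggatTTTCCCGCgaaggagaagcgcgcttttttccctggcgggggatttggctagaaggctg
XRCC3, chr14:103715402-103715551, minus strand: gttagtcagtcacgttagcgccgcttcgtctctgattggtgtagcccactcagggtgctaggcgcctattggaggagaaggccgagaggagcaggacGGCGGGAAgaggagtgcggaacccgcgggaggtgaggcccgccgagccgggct
PALB2, chr16:23641261-23641410, minus strand: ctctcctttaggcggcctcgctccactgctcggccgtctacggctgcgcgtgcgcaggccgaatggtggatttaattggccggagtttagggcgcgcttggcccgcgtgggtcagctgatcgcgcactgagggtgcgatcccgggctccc
RAD50, chr5:132556877-132557026, plus strand: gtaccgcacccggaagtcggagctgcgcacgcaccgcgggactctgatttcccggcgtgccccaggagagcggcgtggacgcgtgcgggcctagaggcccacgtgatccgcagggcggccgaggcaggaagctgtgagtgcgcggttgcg

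Of the 38 members, 34 had a promoter window in the RefSeq table, and 12 of these (35.3%) held at least one of the 3 words within 250 bases before to 50 bases after a start, against 5.50% of 27305 genes. TTTCCCGC and GGCGGGAA share letters on opposite strands, so 1 site can match both, as it did in 2 of the 44 member windows. The words were found in 10 of the 21 members that fell by over 2-fold, in 2 of the 7 that fell less and in 0 of the other 6. CCAAT was found in 16 of the 34 members (47.1%) and in 39.7% of all genes, and TTTGAA, the core of the CHR element of cell cycle genes, in 5 (14.7%) and in 18.2%. The 27305 genes were not limited to the 15167 that passed the filter on low counts, as all 38 members did. The base content of the promoters was not matched either, so these shares are not like for like. A match in these letters is a description and not a measured binding site.

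The Fanconi core complex and its ubiquitin-conjugating enzyme fell as a group, with 9 of 9 members lower than both controls at medians of -1.12 and -1.01. FANCB, a scaffold of the catalytic module, had the largest fall of the 9, at 19.2, 17.1 and 17.3 CPM in the 3 Mock libraries, 29.6, 25.4 and 27.9 CPM in siNT and 5.10, 4.52 and 5.37 CPM in siELMO1. Its log2 fold change was -1.83 ± 0.10 (SE) against Mock and -2.46 ± 0.10 against siNT, and siNT itself was above Mock by 0.63 ± 0.09. FANCA, which stabilizes FANCG and the core, fell by 1.74 and 1.84 on the log2 scale, and FANCG by 1.22 and 1.01. FANCM, the translocase that anchors the complex to DNA, had -1.12 and -1.40, and UBE2T, the conjugating enzyme, -1.19 and -1.08. The falls of FANCC (-0.94 and -0.84), FANCF (-0.80 and -0.54), both adaptor subunits, and FANCL (-0.48 and -0.89), the ubiquitin ligase itself, were smaller. FANCE, which contacts FANCD2, had the smallest fall of the 9 by the mean of both comparisons, although FANCL fell less against Mock. FANCE was at 6.36, 5.63 and 5.47 in Mock, 5.31, 5.36 and 5.25 in siNT and 4.94, 3.34 and 3.89 CPM in siELMO1, with log2 fold changes of -0.51 ± 0.16 and -0.38 ± 0.16. Its adjusted p in edgeR was 0.0104 and 0.043, the largest among the 31 members, and the call against both controls held in 12 of 27 alternative settings.

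FANCD2 and FANCI form the clamp that receives the ubiquitin, and USP1 removes it again. FANCD2 had the largest mean fall of all 38 members, ahead of EXO1 and RAD51AP1 by less than the SE of any of them. It was at 59.9, 57.7 and 59.5 in Mock, 54.6, 52.8 and 53.1 in siNT and 12.6, 9.95 and 12.9 CPM in siELMO1, so that the groups were far apart. The log2 fold changes were -2.31 ± 0.08 and -2.17 ± 0.08, with adjusted p of 6.63e-15 and 1.1e-14 in edgeR. FANCI fell from 126 ± 4.7 and 101 ± 2.7 to 33.9 ± 3.9 CPM (SD, n = 3). USP1 was at 127, 127 and 126 in Mock, 116, 119 and 124 in siNT and 49.0, 47.5 and 49.7 CPM in siELMO1, and its fall of 1.37 and 1.30 on the log2 scale was the smallest of the 3.

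Among the BRCA proteins and their partners, 4 of 5 fell and PALB2 did not. BRCA2, a mediator of strand exchange, was at 36.8, 42.4 and 38.4 in Mock, 33.4, 30.3 and 31.9 in siNT and 10.6, 11.4 and 11.5 CPM in siELMO1, with log2 fold changes of -1.81 ± 0.07 and -1.52 ± 0.07. BRIP1, a helicase that binds BRCA1, fell by 1.72 and 1.60 on the log2 scale, and BARD1, the ligase partner of BRCA1, by 1.45 and 1.42. BRCA1 differed between the controls. It was at 114, 116 and 106 in Mock, 60.4, 59.0 and 64.5 in siNT and 34.3, 37.6 and 39.4 CPM in siELMO1, so its log2 fold change was -1.59 ± 0.09 against Mock and -0.73 ± 0.09 against siNT. PALB2, which joins BRCA1 to BRCA2, was at 40.5, 41.4 and 39.8 in Mock, 33.0, 33.5 and 35.0 in siNT and 40.1, 44.7 and 46.1 CPM in siELMO1. The siELMO1 libraries of PALB2 overlapped with Mock (0.10 ± 0.06, 95% interval -0.02 to 0.22) and lay above siNT (0.36 ± 0.06).

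The MRN complex, which senses broken ends, did not move as a unit. MRE11, its nuclease, fell from 58.8 ± 1.8 and 55.0 ± 2.3 to 26.6 ± 1.7 CPM (SD, n = 3), or by 1.15 and 1.05 on the log2 scale. RAD50, its ATPase, was at 191, 193 and 186 in Mock, 149, 147 and 144 in siNT and 180, 229 and 224 CPM in siELMO1. Library 1 of siELMO1 lay below the Mock libraries and libraries 2 and 3 above them, and the log2 fold change of 0.15 ± 0.06 against Mock had an adjusted p of 0.0495 in edgeR, a call that held in 2 of 27 alternative settings. With library 1 as the only siELMO1 library it was -0.12. Against siNT RAD50 was higher by 0.52 ± 0.06. NBN, the signalling subunit, was at 96.8, 103 and 99.0 in Mock, 119, 118 and 115 in siNT and 87.6, 97.2 and 98.6 CPM in siELMO1, a difference of -0.07 ± 0.05 against Mock and of -0.31 ± 0.05 against siNT. Both intervals lay within a 1.5-fold change, and NBN was therefore counted as level by its gene counts. Its level per transcript length is given below.

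The resection factors also differed in size. EXO1, the long-range exonuclease, was at 28.1, 28.2 and 28.2 in Mock, 28.8, 27.3 and 27.7 in siNT and 5.01, 6.35 and 6.53 CPM in siELMO1. Its log2 fold changes of -2.25 ± 0.10 and -2.24 ± 0.10 were close to those of FANCD2. RBBP8, which encodes the initiating factor CtIP, fell by 0.59 and 0.49 on the log2 scale, less than 2-fold.

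The filament mediators RAD51B, RAD51C, RAD51D, XRCC2 and XRCC3, which prepare the resected strand for strand exchange, split into strongly and weakly affected genes. XRCC3 was at 19.1, 19.5 and 18.9 in Mock, 23.4, 23.4 and 24.1 in siNT and 6.72, 4.70 and 4.19 CPM in siELMO1, with log2 fold changes of -1.86 ± 0.12 and -2.17 ± 0.12. XRCC2 fell from 32.5 ± 2.2 in Mock and 18.8 ± 1.1 in siNT to 7.93 ± 0.52 CPM (SD, n = 3) and by over 2-fold against both, and siNT was itself lower than Mock by 0.79 ± 0.08. RAD51C, the partner of XRCC3, fell by only 0.50 and 0.53. RAD51B was at 9.51, 9.33 and 9.15 in Mock, 6.74, 6.12 and 6.39 in siNT and 7.02, 6.53 and 7.27 CPM in siELMO1, below Mock (-0.43 ± 0.11) and overlapping with siNT (0.11 ± 0.11). RAD51D was at 24.8, 23.4 and 22.3 in Mock, 23.1, 21.6 and 23.5 in siNT and 22.6, 20.8 and 21.6 CPM in siELMO1. It was called in neither comparison (-0.11 ± 0.07 and -0.07 ± 0.07), and its intervals, -0.25 to 0.02 and -0.20 to 0.07, place it among the level genes.

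The 3 strand exchange partners all fell by over 2-fold. RAD51AP1, which stimulates strand pairing, was at 36.1, 36.3 and 35.7 in Mock, 35.3, 37.2 and 37.4 in siNT and 9.16, 5.55 and 8.05 CPM in siELMO1, with log2 fold changes of -2.23 ± 0.14 and -2.25 ± 0.14. RAD54L, the main RAD54 translocase, fell from 17.3 ± 1.1 and 14.2 ± 0.36 to 4.86 ± 0.32 CPM (SD, n = 3). RAD54B, its homolog, was at 14.1, 15.7 and 15.4 in Mock, 19.1, 19.3 and 17.8 in siNT and 4.80, 5.12 and 5.91 CPM in siELMO1, and its fall of 1.52 and 1.83 on the log2 scale was the smallest mean fall of the 3.

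Of the factors that take joint molecules apart, the dissolution genes fell and the resolution genes split. BLM, the helicase of the dissolvasome, fell by 1.84 and 1.59 on the log2 scale, and its cofactors RMI2 by 1.67 and 1.39 and RMI1 by 1.11 and 1.04. EME1, the partner subunit of the MUS81 nuclease, was at 11.9, 12.7 and 12.8 in Mock, 11.3, 9.75 and 9.60 in siNT and 2.61, 2.66 and 2.96 CPM in siELMO1. Its log2 fold changes were -2.18 ± 0.14 and -1.90 ± 0.14. MUS81 itself was at 19.6, 20.4 and 20.0 in Mock, 15.2, 14.2 and 16.6 in siNT and 21.4, 16.2 and 18.4 CPM in siELMO1. Its libraries overlapped between siELMO1 and each control (-0.10 ± 0.09 and 0.29 ± 0.09), although the second difference was called. SLX4, the scaffold for these nucleases, was at 23.1, 24.7 and 21.1 in Mock, 17.1, 15.4 and 16.2 in siNT and 16.8, 19.5 and 19.8 CPM in siELMO1, between the controls at -0.30 ± 0.08 and 0.20 ± 0.08.

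The remaining pair fell by over 2-fold. POLQ, the polymerase of theta-mediated end joining, was at 51.3, 52.5 and 51.0 in Mock, 61.9, 53.7 and 59.5 in siNT and 12.7, 12.5 and 12.6 CPM in siELMO1, with log2 fold changes of -2.03 ± 0.07 and -2.21 ± 0.07. HELLS, a chromatin remodeller, was at 62.9, 65.2 and 58.7 in Mock, 66.2, 71.7 and 59.3 in siNT and 21.4, 22.8 and 25.05 CPM in siELMO1, and fell by 1.43 and 1.51 on the log2 scale.

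Level here means a small difference and not the absence of one. The genes counted as level were PALB2, NBN, RAD51D, SLX4 and MUS81, 5 of 38 members, where 35.0% of all genes met the same criterion of 95% intervals within a 1.5-fold change against both controls. Of the 5 only RAD51D was called in neither comparison. NBN was called lower than siNT, with every siELMO1 library below every siNT library, PALB2, MUS81 and SLX4 were called higher than siNT, and SLX4 was also called lower than Mock. RAD50 and RAD51B met neither criterion and were left undecided. A narrower range kept 1 of the 5. FANCG lay closest to the 2-fold line among the 24, at -1.01 against siNT.

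**Figure D2:**
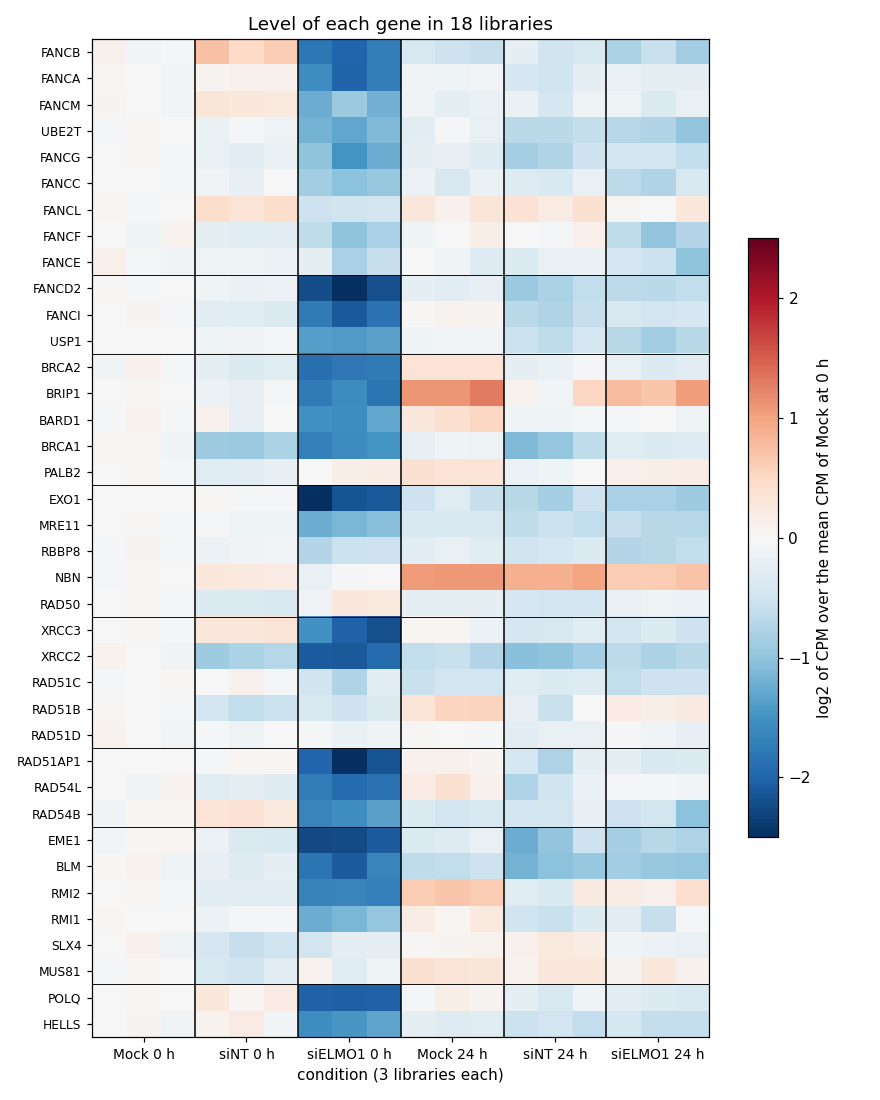
log2 of the CPM of each gene in each of the 18 libraries over its mean CPM in Mock at 0 h, with genes in the order of the roles above and the 3 libraries of each condition side by side. The siELMO1 columns at 0 h are the darkest blue. At 24 h NBN is red in every transfection, and BRIP1 is red in Mock and siELMO1 but paler in siNT. RAD50, PALB2, MUS81, SLX4 and RAD51D stay pale at 0 h.

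Levels can be compared between genes only per length, and for this TPM was computed from the transcript counts and annotated transcript lengths. In Mock at 0 h the members ran from 5.72 TPM for FANCE to 87.4 TPM for UBE2T, with a median of 21.8 TPM, and the median was 19.4 TPM in siNT and 8.59 TPM in siELMO1. NBN, counted as level by its gene counts, was at 49.9 ± 2.5 TPM (SD) in Mock at 0 h. It was at 49.1 ± 7.1 TPM in siNT and lower, at 38.4 ± 4.8 TPM, in siELMO1. These differences in TPM were not tested. Exons of 25 members overlapped those of another annotated gene, 21 of them on the opposite strand. Whether the counting used strand is not given in the sources used here, so reads from such pairs may be mixed, as for MUS81 with CFL1, XRCC3 with KLC1, EME1 with LRRC59 and RAD50 with TH2LCRR. Every member counted as level or left undecided at 0 h had an overlap on the opposite strand, as did some that fell.

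The non-targeting siRNA also moved some of the genes. At 0 h siNT was lower than Mock for 13 members and higher for 7 (34.2% and 18.4% of the members), where 24.0% and 27.6% of all genes were lower and higher, and the members' median was -0.11. A fit of only these groups called 21 lower, and scaling by library totals called 4 higher. The largest differences were those of BRCA1 (-0.86 ± 0.08), XRCC2 (-0.79 ± 0.08) and FANCB (0.63 ± 0.09).

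The study reports massive death of siNT cells under poly(I:C), and much less death in the other transfections. The part of cell death in the siNT levels after poly(I:C), and in the comparisons and interactions that use them, was not tested. At 24 h with poly(I:C) siELMO1 and siNT lay close together. In that comparison 10 members were lower and 9 were higher, where 26.5% and 25.9% of all genes were lower and higher, and the median log2 fold change was 0.01, against -1.27 at 0 h. Without library 3 of siNT at 24 h, 6 members were lower. Of the 24 members that fell by over 2-fold at 0 h, FANCB (-0.35 ± 0.10) and USP1 (-0.23 ± 0.06) were still below siNT, and FANCI, BRIP1, XRCC2, RAD54L and RMI2 were above it, by 0.24 to 0.65 on the log2 scale. BRCA1 was above siNT by 0.57 ± 0.08. For RMI2 the mix of transcripts changed with time. RMI2-203, which has no defined coding sequence, took 40.3% of RMI2 counts in Mock, 38.4% in siNT and 49.4% in siELMO1 at 24 h. At 0 h it took 0.82%, 1.10% and 0.86%.

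Against Mock, 27 members were lower in siELMO1 at 24 h and 0 were higher in edgeR, where 21.9% and 21.5% of all genes were lower and higher, and the median was -0.33. At an unadjusted p under 0.05 the count of higher members was also 0, as it was in DESeq2 and in limma-voom. In siNT at 24 h the counts were equal, with 27 members lower than Mock and 0 higher in edgeR (24.8% and 25.2% of all genes), 1 higher at an unadjusted p under 0.05 and 0 in DESeq2 and limma-voom, and a median of -0.32. These comparisons share the Mock libraries. The 7 members lower in siELMO1 than in both controls at 24 h, where 11.2% of all genes were, were FANCC, FANCE, FANCF, USP1, NBN, RBBP8 and SLX4, and the largest of these differences was that of FANCF, at -0.79 ± 0.10 and -0.80 ± 0.10.

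**Figure D3:**
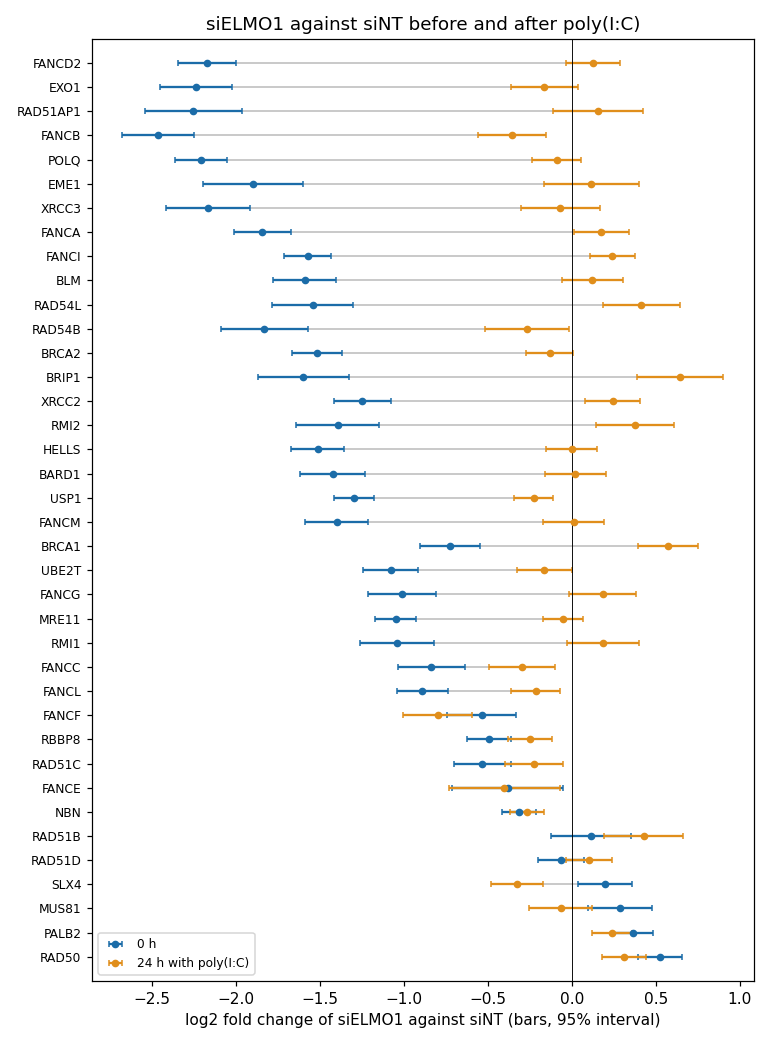
log2 fold change of siELMO1 against siNT for each gene at 0 h (blue) and at 24 h with poly(I:C) (orange), with 95% intervals, ordered by the mean fall at 0 h. The blue points run from -2.46 to 0.52 and the orange points from -0.80 to 0.65, most of them near 0.

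From 0 h to 24 h the members moved mostly upward in siELMO1 and mostly downward in siNT. With poly(I:C) 30 members rose in siELMO1 and 1, RAD50, fell, where 27.9% and 26.8% of all genes rose and fell. In siNT 21 members fell and 8 rose (25.2% and 28.5% of all genes), and in Mock 13 fell and 9 rose (29.6% and 30.5%). Under upper-quartile scaling 4 rather than 8 rose in siNT. The medians were 0.88 in siELMO1, -0.34 in siNT and -0.09 in Mock. The summed level of the members went from 851 to 932 CPM in siELMO1 at 0 h to 1420 to 1483 CPM at 24 h, which lay within the 1331 to 1495 CPM of siNT at 24 h and below the 1788 to 1820 CPM of Mock. The summed cycling markers rose to 744 to 876 CPM in siELMO1 and were at 859 to 932 CPM in siNT and 1081 to 1186 CPM in Mock at 24 h. Their part in these changes was not tested.

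The interaction, the poly(I:C) change in siELMO1 less that in a control, tests this difference directly. Against siNT it was higher for 29 members and lower for 2, where 16.6% and 17.7% of all genes were called. Against Mock it was higher for 28 and lower for 2 (13.7% and 14.4%), and 28 members were higher in both, against 7.56% of all genes. The interaction uses the same siELMO1 libraries at 0 h as the fall described above, so the 2 are not independent.

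The 3 largest interactions against siNT were those of RAD51AP1, FANCD2 and BRIP1. RAD51AP1 at 24 h was at 38.8, 38.7 and 37.8 in Mock, 26.5, 21.0 and 30.5 in siNT and 31.0, 27.6 and 28.4 CPM in siELMO1, and its interaction was 2.41 ± 0.19 (adjusted p in edgeR, 1.73e-08). FANCD2 was at 50.02, 48.2 and 50.9 in Mock, 31.0, 34.2 and 38.4 in siNT and 37.6, 37.0 and 38.5 CPM in siELMO1, with an interaction of 2.30 ± 0.11. Neither was called different from siNT at 24 h (0.16 ± 0.13 and 0.13 ± 0.08), and both were below Mock (-0.41 ± 0.13 and -0.40 ± 0.08). BRIP1 had been at 60.1, 61.4 and 59.8 in Mock, 55.0, 52.4 and 59.0 in siNT and 17.7, 20.4 and 17.0 CPM in siELMO1 at 0 h. It was at 130, 130 and 148 in Mock, 64.4, 57.9 and 86.5 in siNT and 105, 98.4 and 124 CPM in siELMO1 at 24 h, so every siELMO1 library was above every siNT library, and its interaction was 2.24 ± 0.18.

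**Figure D4:**
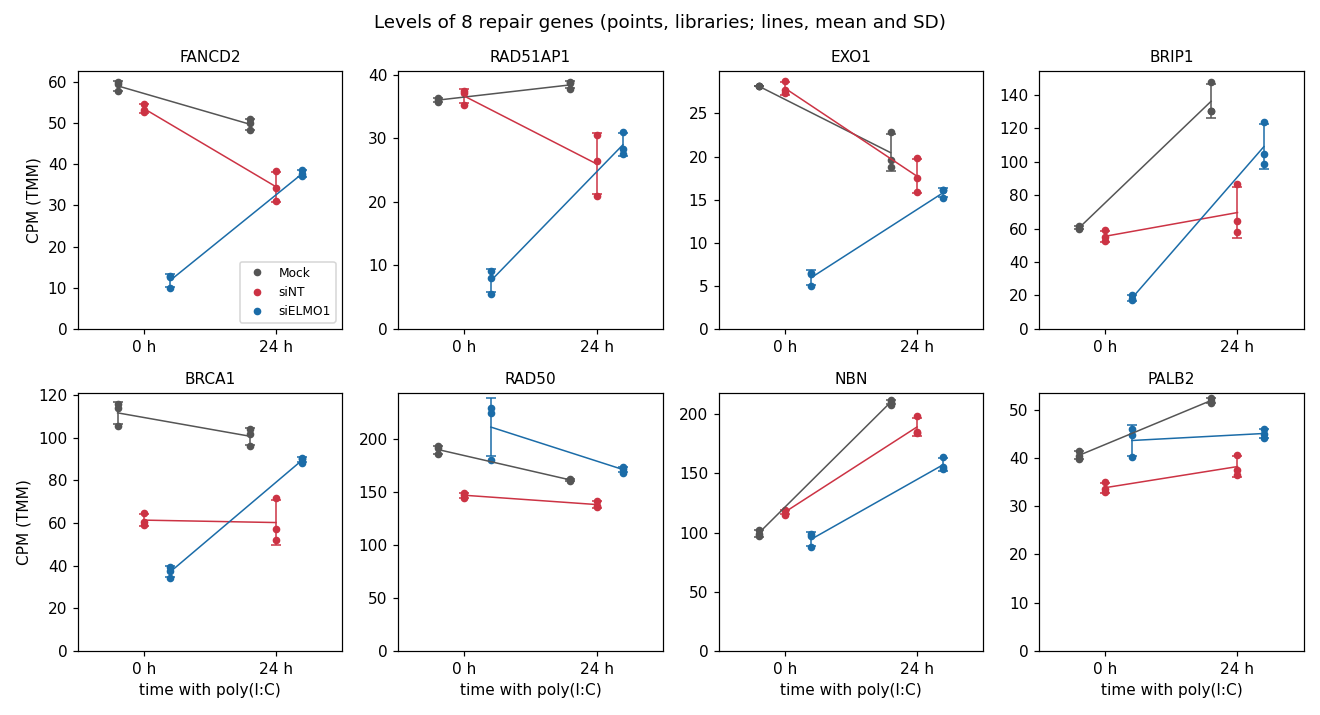
CPM of 8 repair genes in Mock (grey), siNT (red) and siELMO1 (blue) at 0 h and at 24 h with poly(I:C); points are libraries, and lines join the means with their SD. FANCD2, RAD51AP1, EXO1, BRIP1 and BRCA1 start low in siELMO1 and rise, RAD50 and PALB2 do not start low, and NBN rises in all 3.

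Some members moved the same way with poly(I:C) in several transfections. Calls of a rise in all 3 transfections were made for 5 members, BRIP1, BRCA2, NBN, RAD51B and MUS81, a share near the 14.4% of all genes. By its gene counts NBN rose by 1.08 ± 0.05 in Mock, 0.69 ± 0.05 in siNT and 0.74 ± 0.05 in siELMO1, and its interaction against siNT was 0.05 ± 0.07. Per transcript length, NBN at 24 h was at 89.3 ± 7.1 in Mock, 88.3 ± 6.2 in siNT and 54.9 ± 8.2 TPM in siELMO1 (SD, n = 3). NBN-205 took 52.1 ± 45.1% of its counts in siELMO1 at 24 h, with a wide spread between libraries, and 0.055% and 0.0032% in Mock and siNT. Falls in both Mock and siNT were called for 10 members, FANCB, FANCG, FANCD2, MRE11, RBBP8, EXO1, RAD51C, RAD54B, BLM and HELLS, where 17.5% of all genes fell in both, and for 16 under scaling by library totals or upper quartiles. The 2 members with a lower interaction against siNT were SLX4 (-0.52 ± 0.11) and MUS81 (-0.35 ± 0.13), both level at 0 h, and those against Mock were PALB2 (-0.31 ± 0.08) and NBN (-0.34 ± 0.07).

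Genes of neighbouring pathways give the setting of the 0 h fall. Of 46 other genes of recombination and crosslink repair, 26 were lower than both controls (16.7% of all genes), 10 by over 2-fold (3.23%), and 15 were level (35.0%). By the mean of both comparisons the largest falls among them were those of FIGNL1 (-1.78 ± 0.06 against Mock and -1.77 ± 0.06 against siNT), MCM8 (-1.62 ± 0.08 and -1.94 ± 0.08) and DNA2 (-1.61 ± 0.08 and -1.77 ± 0.08). Of 16 genes of non-homologous end joining, 7 were lower than both controls and 0 by over 2-fold, and of 18 genes of nucleotide excision repair 2 and 0. The same shares of all genes stand beside these counts. All 6 subunits of the MCM2 to MCM7 helicase, which unwinds DNA in replication, were lower than both controls, 5 by over 2-fold. The medians of the mean log2 fold change ran from -1.50 for the helicase through -0.43 for the other recombination genes and -0.27 for end joining to 0.30 for nucleotide excision repair. The last depended on the control, with a median of 0.07 against Mock and 0.43 against siNT, and siNT was itself lower than Mock for 9 of the 18 genes.

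**Figure D5:**
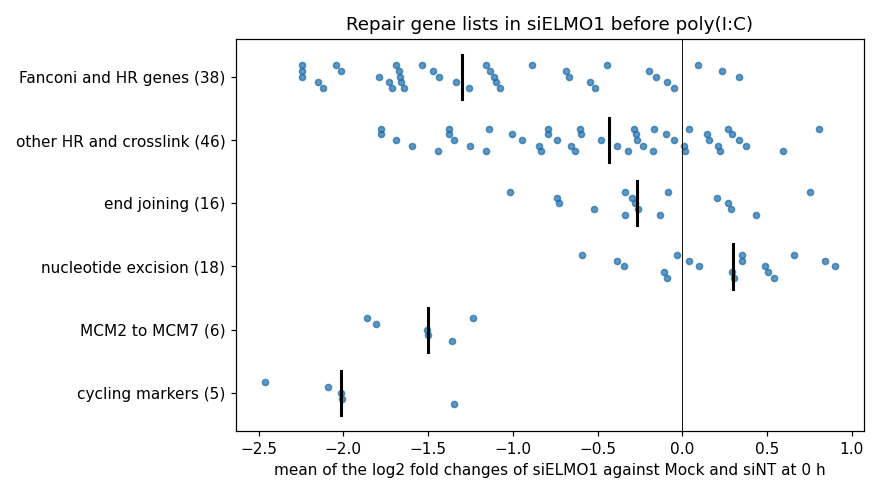
Mean of the log2 fold changes of siELMO1 against Mock and against siNT at 0 h for each gene (points) of 6 lists, with the list median as a black bar. The 38 repair genes and MCM2 to MCM7 lie mostly left of -1, end joining genes lie on both sides of 0, and the 5 cycling markers have the lowest median, -2.01.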

How the data were processed

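RNA from EA.hy926 cells was sequenced by the authors as paired ends of a stranded mRNA library, aligned to GRCh38 with STAR and quantified with StringTie, whose script gave the deposited gene and transcript matrices of estimated counts, named by GENCODE v44. These expected counts are whole numbers and are not normalized; the read length given to that script and the strand setting are not given in the sources used here, and a count may stand for less than 1 read pair.

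As in the study, a gene was kept if its counts summed to 100 or more and its highest CPM reached 1. One edgeR 4.0.16 quasi-likelihood model (R 4.3.3, robust, TMM) was fitted to all 18 libraries with the 6 conditions as groups, and 11 comparisons were adjusted over all genes tested by the Benjamini-Hochberg method. The 95% intervals came from the same fit. The study used voom and dream. limma-voom (limma 3.58.1), DESeq2 1.42.0, other scalings and filters, a replicate block and each library left out were the alternatives. The fits were tried on simulated counts with changes set in siELMO1 at 0 h and read against Mock only, so the other comparisons were not covered.

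The members, the gene lists and the tests were chosen with earlier results of these data known. Every member was named; library values were given for the largest and smallest fall in each role group, for members not lower than both controls, and for the 3 largest interactions against siNT. BRCA1 values, and those for neighbouring genes, were added after they were seen. The sample titles give replicate numbers and state no pairing. Only for siNT against Mock at 24 h did the residuals of same-numbered libraries over 9644 genes correlate by over 0.1 in each pair.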

Additional observations from a re-analysis of the deposited data

Results flagged for a closer look

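The poly(I:C) response of the repair genes differed between siELMO1 and the controls by the interaction test. Against siNT the interaction was called higher for 29 members and lower for 2, where 16.6% and 17.7% of all genes were called. Against Mock it was higher for 28 and lower for 2, where 13.7% and 14.4% of all genes were called. Single members with such a difference against siNT were RAD51AP1 (2.41 on the log2 scale), FANCD2 (2.30), BRIP1 (2.24), SLX4 (-0.52) and MUS81 (-0.35). For MUS81 the call was lost in 10 of 27 alternative settings, and the interactions share their siELMO1 libraries at 0 h with the fall at that time. The part of siNT cell death under poly(I:C) in the interactions against siNT was not tested.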

How the results depend on the processing

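Of 81 values of single members under 27 alternative settings (2187 comparisons), 2116 kept their direction and their side of the threshold, 62 lost the call, 5 gained one and 4 reversed. The count lower than both controls at 0 h stayed at 30 to 32, that of over 2-fold falls at 23 to 24, and the higher interactions at 27 to 29 against siNT and 28 to 30 against Mock. The cause of the following changes was not tested. Against Mock at 0 h, 0 members rather than 1 were higher under DESeq2, limma-voom, scaling by library totals or upper quartiles, the filter of edgeR, no filter, a fit of only the groups compared, and siELMO1 library 1 alone. Fitting only the groups compared gave 2 higher than siNT at 0 h, 21 lower in siNT than Mock at 0 h, 1 higher in siNT than Mock at 24 h, 5 higher with poly(I:C) in siNT and 1 lower interaction against siNT. Scaling by library totals gave 4 higher in siNT than Mock at 0 h, 5 higher with poly(I:C) in siNT, 2 lower with poly(I:C) in siELMO1 and 16 lower with poly(I:C) in both Mock and siNT. Upper-quartile scaling gave 4 higher with poly(I:C) in siNT and 16 lower in both controls. Without a filter 4 were higher in siNT than Mock at 0 h, 5 were higher with poly(I:C) in siNT and 1 had a lower interaction against siNT, as 1 had under the filter of edgeR. With siELMO1 library 1 alone at 0 h, chosen after seeing the data, 3 members were level, 0 were lower with poly(I:C) in siELMO1, 0 had a lower interaction against Mock, and 1 was higher than Mock at 24 h in siELMO1 and 1 in siNT; PALB2 (-0.053), RAD50 (-0.12) and MUS81 (0.060) against Mock and RAD51D (0.0025) against siNT changed sign. The narrower range left 1 level member.

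Leaving out each library in turn gave 0 to 2 members higher than Mock at 0 h, with 2 without siELMO1 library 1, and 2 to 4 higher than siNT, with 2 without siNT library 2. It gave 3 to 7 higher in siNT than Mock at 0 h, 0 to 1 higher than Mock at 24 h in siELMO1 and in siNT, 6 to 10 lower than siNT at 24 h, with 6 without siNT library 3 of 24 h, 3 to 8 higher with poly(I:C) in siNT, with 3 without that library, 1 to 2 lower with poly(I:C) in siELMO1, and 1 to 2 lower interactions against siNT.

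Residuals of same-numbered libraries correlated by over 0.1 in each pair in 1 of 9 comparisons, siNT against Mock at 24 h. Over all comparisons the correlations ran from -0.25 to 0.45. With the replicate block 27 members were lower there, 31 were lower than both controls at 0 h and 8 at 24 h, and the block moved no count by over 1.5 times. The libraries held estimated counts, so their precision is not that of reads.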
